A study of Mus musculus with 2 samples.

Results

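The proteasome genes of the mouse were followed on 2 microarrays with a dye pair on each, hybridised with RNA of lymphocytes polarized in culture. The genes were chosen by name: every gene whose single annotated symbol starts with Psma, Psmb, Psmc, Psmd, Psme, Psmf or Psmg and goes on with a digit. This rule used no measured value and found 49 of the 17501 named genes, covered by 76 probes, 26 genes by 1 probe and 23 by 2 or 3. All 49 had values on both arrays and no filter on low values was applied, while Psmg4 and Psme2b had no probe of their own and were not analysed here. Of the 49, 5 were the immunoproteasome and PA28 genes (Psmb8, Psmb9, Psmb10, Psme1 and Psme2), 31 were the constitutive subunits set against them, and 13 were other members, including 2, Psmc3ip and Psme3ip1, that carry the prefix but encode interaction partners and not subunits. Per the labels, the Th17-polarized, the Th1-polarized and the Th0-polarized lymphocytes came from a TRP-1 mouse. Th17 and Th1 are T helper fates known for interleukin 17 and for interferon gamma, and Th0 is the usual name for cells cultured without lineage-directing cytokines. One array paired Th17 RNA in Cy5 with Th0 RNA in Cy3 (the Th17 array), the other paired Th1 RNA in Cy5 with Th0 RNA in Cy3 (the Th1 array). The sources used here do not give age, sex, culture times, the cytokines added or whether animals were pooled.

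The proteasome is the protease complex that degrades ubiquitin-tagged proteins. Its core particle is a barrel of alpha rings around beta rings, and the beta rings hold the active sites: Psmb5 cuts after hydrophobic, Psmb6 after acidic and Psmb7 after basic residues. In lymphocytes and in cells exposed to interferon gamma these are exchanged for Psmb8, Psmb9 and Psmb10, which gives the immunoproteasome, known for producing peptides for MHC class I. The regulatory particle, built of Psmc ATPases and Psmd subunits, recognises, unfolds and feeds in the substrates, and PA28, built of Psme1 and Psme2, is another cap that interferon gamma induces.

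Values are the log2 ratios of the 2 channels as deposited, averaged over the probes of a gene, so that a distance of 1 is a 2-fold difference. With 1 array per comparison, no replicate and no dye swap, no difference was tested and no p-value exists. The only repeat measurement used here is the spread between probes of 1 gene. Some genes had many probes, such as Tbp with 79, and were pooled with the rest. This spread had a pooled SD of 0.49 on the Th17 array and 0.51 on the Th1 array over 5886 genes with several probes. Over the 23 proteasome genes with several probes it was 0.27 and 0.30. The direction of the ratio is not settled. The titles name the polarized cells over Th0, in which reading a positive value means higher expression in the polarized cells. The table names no numerator, and Il17a lay at −5.37 on the Th17 array and Ifng at −2.02 on the Th1 array. In the titled reading, each of these genes would be lower in the cells of the fate known for it than in Th0 cells. Read with the sign turned, the positive side would be lower expression after polarization. Signs are printed as deposited, as the positive or the negative side. In RNA of whole cultures, fewer cells of a type and less RNA per cell cannot be told apart.

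Across all 17501 genes, the median was −0.03 on the Th17 array and −0.08 on the Th1 array, and the zero of each array is set by a constant of unknown origin. Control genes, the widely expressed genes often used as a yardstick, had a median of −0.02 on the Th17 array and 0.27 on the Th1 array over 12 measured members. The table holds ratios only, so whether a defining T cell marker was absent could not be checked. Markers of other cells lay on the same side as the proteasome genes on the Th1 array: all 13 measured myeloid markers lay above 0 there (0.03 to 2.98, median 1.57, 10 of them at least 2-fold), and so did all 6 mast cell and basophil markers (1.82 to 3.31, median 2.55). On the Th17 array, 8 of 13 myeloid markers lay above 0 (−2.04 to 2.14, median 0.79), as did 5 of 6 mast cell and basophil markers (−0.05 to 2.31, median 0.89). Of 8 T cell markers, 2 lay above 0 on the Th17 array (median −1.11) and 0 on the Th1 array (median −0.76). The 7 dendritic cell and class II markers had medians of −0.16 on the Th17 array (1 above 0) and 0.85 on the Th1 array (5 above 0), the 6 B cell markers of 0.14 (4 above 0) and −0.12 (2 above 0), and the 6 CD8 T and NK cell markers of −0.27 (2 above 0) and −0.12 (1 above 0). The part of these other cells in the proteasome values was not tested.

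The constitutive subunits lay on the positive side of both arrays. As deposited they lay further so on the Th1 array, but not when centred on control genes. The 5 immunoproteasome and PA28 genes lay among the constitutive subunits on the Th17 array. On the Th1 array these 5 were spread around a median near 0 as deposited, which became −0.29 when centred on control genes. On the Th17 array 27 of the 31 constitutive subunits were above 0, against 46.3% of all genes, with a median of 0.26 (−0.44 to 1.02). On the Th1 array 30 of 31 were above 0, against 42.6% of all genes, with a median of 0.50 (−0.08 to 1.12). The range above the upper quartile of all genes held 18 of the 31 on the Th17 array and 26 on the Th1 array, against 25% of genes by construction. The size of these values was small. On the Th17 array, 1 of 49 members (Psma5) was at least 2-fold on the positive side, against 2.9% of all genes, and 0 on the negative side, against 5.52%. On the Th1 array, 3 of 49 (Psmc6, Psma5 and Psmd14) were on the positive side, against 3.27%, and 0 on the negative side, against 6.92%. At 1.5-fold, 4 of 49 members were on the positive side of the Th17 array, against 7.88% of all genes, and 12 on that of the Th1 array, against 9.49%. The positive shares of members on the Th1 array, 6.12% at 2-fold and 24.5% at 1.5-fold, are above the background, the first resting on 3 genes, and those on the Th17 array, 2.04% and 8.16%, are near it. When each array was centred on its control genes, the constitutive medians became 0.28 and 0.23, and 0 members were 2-fold apart on the Th1 array.

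**Figure D1:**
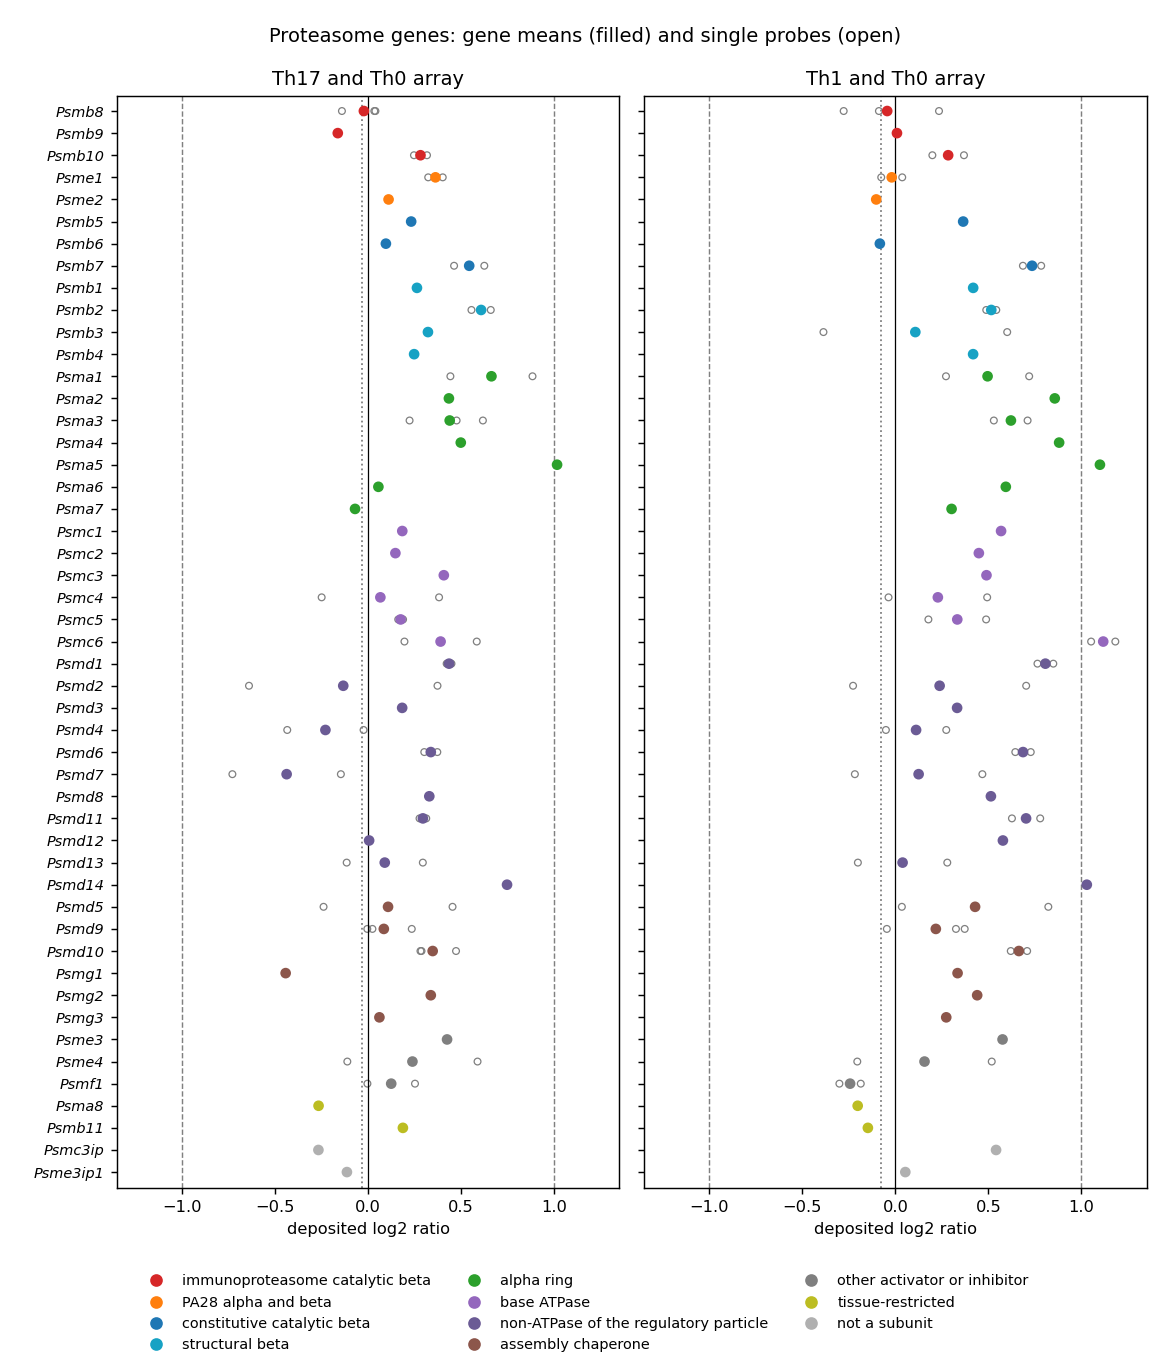
Deposited log2 ratio of the 49 proteasome genes on the Th17 array (left) and the Th1 array (right). Filled points are gene means coloured by role, open points single probes, the solid line 0, the dotted line the median of all genes (−0.03 and −0.08) and the dashed lines 2-fold. Most constitutive subunits lie right of 0 on both arrays, while Psmb8, Psmb9 and Psme2 lie close to it.

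As deposited, the 3 immunoproteasome peptidases lay closer to 0 on both arrays than the pooled SD between probes of a gene over all genes. Psmb10 on the Th17 array exceeded that over proteasome genes. Psmb8, which replaces Psmb5, lay at −0.14, 0.04 and 0.03 on the Th17 array in its 3 probes (mean −0.02 ± 0.10, SD) and at −0.28, −0.09 and 0.23 on the Th1 array (mean −0.04 ± 0.26, SD). The probes of Psmb8 fell on both sides of 0 on both arrays. Psmb9, which replaces Psmb6, lay at −0.16 on the Th17 array and 0.01 on the Th1 array, with 1 probe. Psmb10, which replaces Psmb7, lay at 0.25 and 0.32 on the Th17 array and at 0.20 and 0.37 on the Th1 array. Psmb10 was the one peptidase of the 3 with all probes above 0 on both arrays, at the same mean value of 0.28.

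Both PA28 genes were higher on the Th17 array than on the Th1 array as deposited, with differences of 0.38 and 0.21. These were 0.32 and 0.15 when each array was centred on the median of its probes, and 0.67 and 0.50 on its control genes. They turned to −0.04 and −0.21 when each array was centred on its most repeated value. Psme1, its alpha subunit, lay at 0.40 and 0.32 on the Th17 array (mean 0.36 ± 0.06, SD, n = 2 probes) and at 0.04 and −0.08 on the Th1 array (mean −0.02 ± 0.08, SD, n = 2 probes). Both Psme1 probes were higher on the Th17 array than either was on the Th1 array. Psme2, its beta subunit, lay at 0.11 on the Th17 array and −0.10 on the Th1 array with 1 probe, and its signal may include that of Psme2b, a closely similar copy not analysed here. Psme3, the subunit of a nuclear relative of PA28 that interferon gamma does not induce, lay at 0.42 on the Th17 array and 0.58 on the Th1 array. On the Th1 array Psme3 thus differed from Psme1 by 0.60 and from Psme2 by 0.68, and on the Th17 array by 0.06 and 0.31.

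Differences between members on the same array do not depend on how that array was centred, and each immunoproteasome peptidase was set against its constitutive counterpart in this way. Psmb8 lay at −0.02 and Psmb5 at 0.23 on the Th17 array, and at −0.04 and 0.36 on the Th1 array, so that Psmb8 minus Psmb5 was −0.25 and −0.41. Psmb10 lay at 0.28 and Psmb7 at 0.54 on the Th17 array, and at 0.28 and 0.73 on the Th1 array, so that Psmb10 minus Psmb7 was −0.26 and −0.45. For both of these pairs the immunoproteasome member lay below its counterpart on both arrays. The 2 probes of Psmb7 lay at 0.62 and 0.46 on the Th17 array and at 0.78 and 0.69 on the Th1 array, above both Psmb10 probes on each. Psmb9 and Psmb6 broke the pattern: Psmb9 minus Psmb6 was −0.26 on the Th17 array and 0.09 on the Th1 array, where Psmb6 lay at −0.08, the lowest constitutive subunit. All of these differences are below the pooled SD between probes of a gene over all genes (0.49 and 0.51). Psmb8 minus Psmb5 and Psmb10 minus Psmb7 on the Th1 array exceed the SD of 0.30 over proteasome genes, but with the first probe per gene Psmb8 minus Psmb5 was −0.13 there. These SDs describe single probes and do not measure the error of a difference between gene means.

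**Figure D2:**
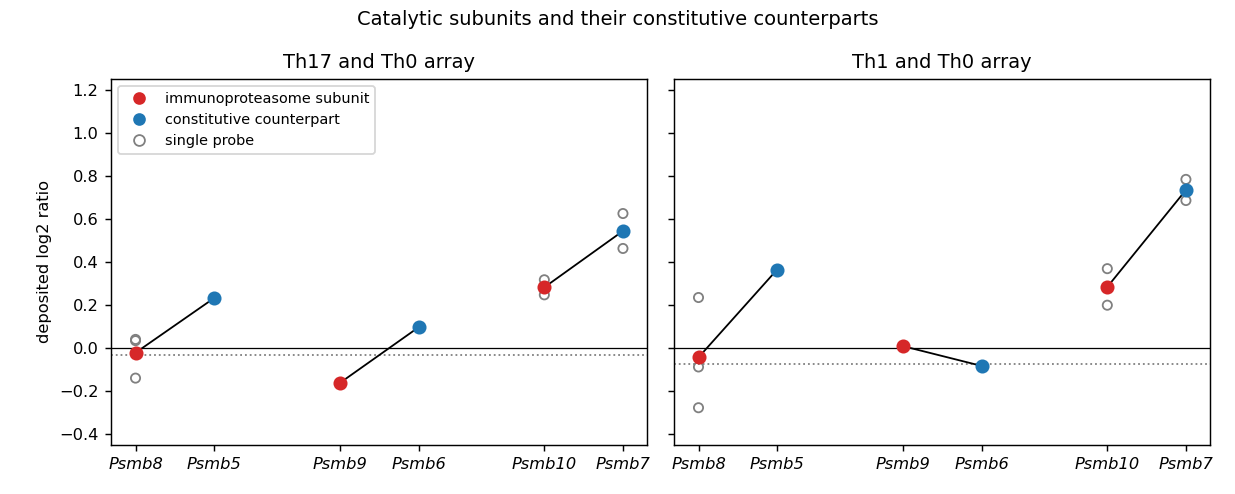
Deposited log2 ratio of each immunoproteasome peptidase (red) and its constitutive counterpart (blue) on the Th17 array (left) and the Th1 array (right), with single probes as open points. The solid line is 0 and the dotted line the median of all genes; Psmb8 lies below Psmb5 and Psmb10 below Psmb7 on both arrays, and Psmb9 lies above Psmb6 on the Th1 array.

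As groups, the 5 immunoproteasome and PA28 genes had a median of 0.11 on the Th17 array (−0.16 to 0.36) and −0.02 on the Th1 array (−0.10 to 0.28). Their median minus that of the 31 constitutive subunits was −0.15 on the Th17 array and −0.52 on the Th1 array. On the Th1 array 24 of the 31 constitutive subunits lay above the highest of the 5, Psmb10, and 30 lay above their median. On the Th17 array 11 of 31 lay above the highest of the 5, Psme1, and 22 above their median. The separation was thus larger on the Th1 array. There it is close to the SD of 0.51 between probes of a gene over all genes and larger than that of 0.30 over proteasome genes. Those SDs describe single probes and do not measure the error of a difference between group medians.

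The stretches before the annotated starts are shown for Psmb8 and its counterpart Psmb5, for Psmb9, and for Psmc6, the highest member on the Th1 array, as examples of interferon-induced and constitutive members. They hold the 250 bases upstream of the start in RefSeq (GRCm38.p6), 5′ to 3′ on the gene's strand, with matched motifs in capitals. The motifs were the core of the interferon-stimulated response element, a pair of GAAA runs with 2 free bases between them, and TGACNNNGC, the core of the element bound by NRF1, a known activator of proteasome genes. Both strands were read.
Psmb8 (chr17:34197945-34198194, plus strand): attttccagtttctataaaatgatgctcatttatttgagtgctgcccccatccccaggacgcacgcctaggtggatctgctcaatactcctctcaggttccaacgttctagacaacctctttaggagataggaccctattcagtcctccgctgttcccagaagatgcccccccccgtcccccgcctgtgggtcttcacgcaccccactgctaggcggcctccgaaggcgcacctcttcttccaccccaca
Psmb5 (chr14:54617996-54618245, minus strand): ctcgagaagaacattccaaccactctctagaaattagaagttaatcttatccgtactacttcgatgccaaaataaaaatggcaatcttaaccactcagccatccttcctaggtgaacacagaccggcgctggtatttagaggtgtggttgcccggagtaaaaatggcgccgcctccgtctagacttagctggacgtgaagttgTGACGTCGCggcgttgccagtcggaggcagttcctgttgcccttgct
Psmb9 (chr17:34187331-34187580, minus strand): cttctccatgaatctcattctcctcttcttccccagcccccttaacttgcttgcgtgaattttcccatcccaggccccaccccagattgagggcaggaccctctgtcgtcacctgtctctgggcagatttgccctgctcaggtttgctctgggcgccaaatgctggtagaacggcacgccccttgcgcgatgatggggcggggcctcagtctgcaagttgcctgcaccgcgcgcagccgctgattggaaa
Psmc6 (chr14:45329574-45329823, plus strand): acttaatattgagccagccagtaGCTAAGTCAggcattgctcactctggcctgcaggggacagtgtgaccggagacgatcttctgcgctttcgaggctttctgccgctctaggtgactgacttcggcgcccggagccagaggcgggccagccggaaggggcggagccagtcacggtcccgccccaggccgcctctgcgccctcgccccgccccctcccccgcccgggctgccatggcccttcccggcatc
Psmb8 held no match to these motifs in this window. Psmb5 held TGACNNNGC beginning 47 bases and Psmc6 its reverse complement beginning 227 bases before the start. Psmb9, like Psmb8, held no match.

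Promoters of 300 bases (250 before to 50 after the start) were found for 41 of the 49 members, 45 windows in all. TGACNNNGC was present in 6 of the 45 (13.3%) and in 12.4% of all 32851 promoters in the table, and its holders were Psmb5, Psmb6, Psmc6, Psmd12, Psmd9 and Psme4. The interferon-stimulated response element core was present in 4 (8.89%), those of Psmb3, Psmd4, Psmd9 and Psme1, and in 3.44% of all promoters. The holders of TGACNNNGC ranged from 0.01 (Psmd12) to 0.39 (Psmc6) on the Th17 array and from −0.08 (Psmb6) to 1.12 (Psmc6) on the Th1 array, and so spanned the range of the constitutive subunits on the Th1 array.

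Among the constitutive genes, the alpha ring, which forms the gate of the core particle, lay furthest on the positive side. Its 7 genes had a median of 0.44 on the Th17 array (−0.07 to 1.02) and 0.62 on the Th1 array (0.30 to 1.10). Psma5 lay at 1.02 on the Th17 array and 1.10 on the Th1 array, and was the single member at least 2-fold on both, with 1 probe. Psma4 lay at 0.50 on the Th17 array and 0.88 on the Th1 array, and Psma2 at 0.43 and 0.86. The 2 probes of Psma1 lay at 0.44 and 0.88 on the Th17 array and at 0.27 and 0.72 on the Th1 array, with a higher mean on the Th17 array (0.66) than on the Th1 array (0.50). The 3 probes of Psma3 lay at 0.62, 0.48 and 0.22 on the Th17 array and at 0.62, 0.53 and 0.71 on the Th1 array. Psma6 and Psma7 were near 0 on the Th17 array (0.06 and −0.07) and higher on the Th1 array (0.59 and 0.30).

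The structural beta subunits, which complete the beta rings without an active site, had a median of 0.29 on the Th17 array and 0.42 on the Th1 array over 4 genes, all above 0. Psmb2 lay at 0.66 and 0.56 on the Th17 array and at 0.54 and 0.49 on the Th1 array. Psmb1 lay at 0.26 on the Th17 array and 0.42 on the Th1 array, and Psmb4 at 0.25 and 0.42. The 2 probes of Psmb3 agreed on the Th17 array (0.33 and 0.32) and fell on opposite sides on the Th1 array (−0.39 and 0.60), so that its mean of 0.11 there describes neither probe.

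In the regulatory particle, the means of the 6 ATPases of the base, which unfold substrates, were all above 0 on both arrays. Their median was 0.18 on the Th17 array (0.07 to 0.41) and 0.47 on the Th1 array (0.23 to 1.12). The 2 probes of Psmc4 lay on opposite sides of 0. They were at 0.38 and −0.25 on the Th17 array and at 0.49 and −0.04 on the Th1 array. Psmc6 lay at 0.58 and 0.20 on the Th17 array and at 1.05 and 1.18 on the Th1 array, with both probes higher on the Th1 array than either on the Th17 array. The 11 other subunits of the regulatory particle had a median of 0.18 on the Th17 array, where 8 were above 0, and 0.51 on the Th1 array, where all 11 were. Psmd14, the deubiquitinase that removes the tag from the substrate, lay at 0.75 on the Th17 array and 1.03 on the Th1 array. Among the probes of the scaffold subunits Psmd1 and Psmd2, the second of Psmd2 stood apart. Psmd1 lay at 0.42 and 0.45 on the Th17 array and at 0.85 and 0.76 on the Th1 array. The probes of Psmd2 lay on opposite sides of 0, at 0.37 and −0.64 on the Th17 array and at 0.70 and −0.23 on the Th1 array.

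Lower values were found for the ubiquitin receptor gene Psmd4, at −0.23 on the Th17 array and 0.11 on the Th1 array, and for Psmd7, which pairs with Psmd14. Psmd7 lay at −0.73 and −0.15 on the Th17 array and at −0.22 and 0.47 on the Th1 array, and its mean of −0.44 was the lowest of the constitutive subunits on the Th17 array. Psmd12 lay at 0.01 on the Th17 array and 0.58 on the Th1 array. Psmd13 had means close to 0 on both, at 0.09 and 0.04, which describe neither of its 2 probes. These lay at 0.29 and −0.12 on the Th17 array and at 0.28 and −0.20 on the Th1 array. Psmd3, Psmd6, Psmd8 and Psmd11 ranged from 0.18 to 0.34 on the Th17 array and from 0.33 to 0.70 on the Th1 array. Of the 15 constitutive subunits with several probes, 12 had all probes on 1 side of 0 on the Th17 array and 9 on the Th1 array. Over all 5886 genes with several probes, 3160 did so on the Th17 array and 3337 on the Th1 array.

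The chaperones that assemble the complex were above 0 in 5 of 6 cases on the Th17 array (median 0.10) and in 6 of 6 on the Th1 array (median 0.38). Psmg1, which with Psmg2 guides the first alpha ring, lay at −0.44 on the Th17 array, the lowest member there, and at 0.33 on the Th1 array. Psmg2 lay at 0.34 and 0.44 on the same arrays, so the partners differed in side on the Th17 array. Psmg3 lay at 0.06 and 0.27. Psmd10, a chaperone of the ATPase base also known as gankyrin, lay between 0.28 and 0.47 in its 3 probes on the Th17 array and between 0.62 and 0.71 on the Th1 array. Psmd5 and Psmd9, which serve the same step, had means of 0.11 and 0.08 on the Th17 array and of 0.43 and 0.22 on the Th1 array.

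Of the other activators and the inhibitor, Psme4, the large nuclear cap, had probes on both sides of 0 on each array (0.59 and −0.11 on the Th17 array, 0.52 and −0.21 on the Th1 array). Psmf1, named as a proteasome inhibitor, lay at −0.004 and 0.25 on the Th17 array and at −0.30 and −0.19 on the Th1 array, where its mean of −0.24 was the lowest of the 49. The tissue-restricted subunits were lower on the Th1 array than all constitutive subunits. Psma8, known from testis, lay at −0.27 on the Th17 array and −0.20 on the Th1 array, and Psmb11, known from the cortex of the thymus, at 0.19 and −0.15. The 2 genes that are no subunits lay at −0.27 and 0.54 (Psmc3ip, a recombination factor of meiosis) and at −0.11 and 0.05 (Psme3ip1), on the Th17 and the Th1 array in that order.

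When the value of the Th1 array was subtracted from that of the Th17 array, most proteasome genes were on the negative side, by small amounts. The difference rests on a shared Th0 RNA and a shared column order, neither of which the labels state. The median over the 49 members was −0.17, and 38 were below 0, against 46.1% of all genes, whose median was 0.04. None of the 49 was at least 2-fold apart on either side, against 4.53% of all genes on the positive and 3.61% on the negative side. At 1.5-fold, 3 of 49 were on the negative side, against 9.33% of all genes. The constitutive subunits had a median of −0.19 with 26 of 31 below 0, but this turned to 0.09 when each array was centred on its control genes, so its sign depends on where 0 is set. The regulatory particle subunits had 16 of 17 values below 0 (median −0.34) and the constitutive core subunits 10 of 14 (median −0.16).

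The members furthest on the negative side were Psmc3ip at −0.81, Psmg1 at −0.78, Psmc6 at −0.73 and Psmd12 at −0.57, followed by Psmd7 at −0.56. For Psmc6 both probes had negative differences, and the other 4 genes rest on 1 probe, except Psmd7 with 2. Furthest on the positive side lay Psme1 at 0.38, Psmf1 at 0.37, Psmb11 at 0.34, followed by Psmb3 and Psme2 at 0.21 each. The probes of Psmb3 disagreed here too, at 0.71 and −0.28. Of the immunoproteasome peptidases, Psmb8 lay at 0.02, Psmb10 at −0.002 and Psmb9 at −0.17, beside Psmb5 at −0.13, Psmb7 at −0.19 and Psmb6 at 0.18. The 5 immunoproteasome and PA28 genes minus the constitutive subunits differed by 0.21 between medians, and 5 of 31 constitutive subunits lay above their median.

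**Figure D3:**
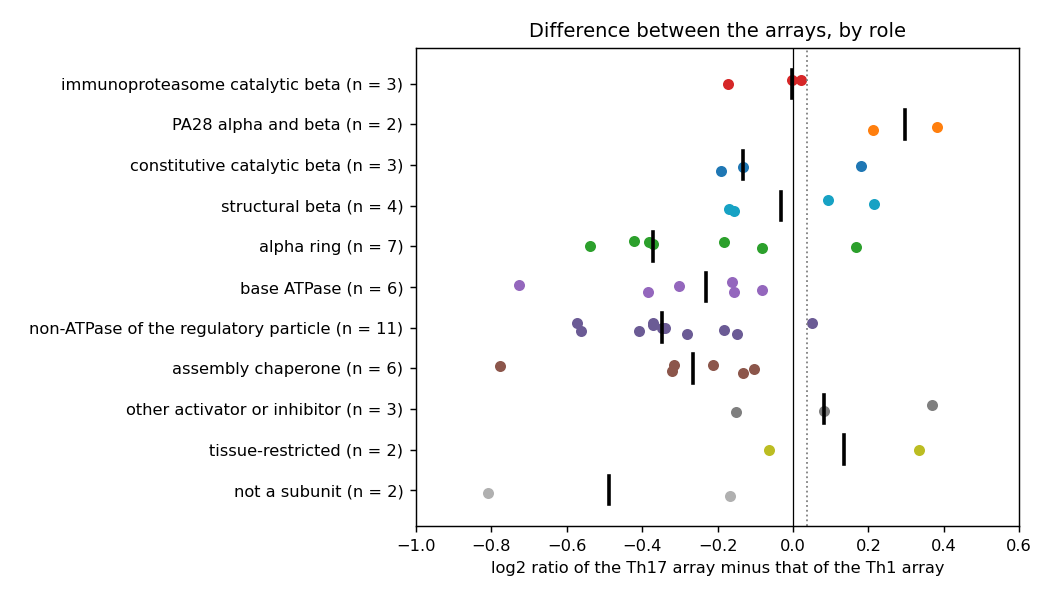
Log2 ratio of the Th17 array minus that of the Th1 array for the 49 proteasome genes by role, with the median of each role as a bar, 0 as the solid line and the median of all genes (0.04) as the dotted line. The ATPases and the assembly chaperones lie wholly left of 0 as deposited and both PA28 genes right of it, and no gene reaches a difference of 1.

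Other genes of the pathway were taken from written lists. Of 13 genes for assembly, docking and transcription of the proteasome, 10 were measured, with a median of 0.19 on the Th17 array (8 above 0) and 0.56 on the Th1 array (10 above 0), and 0 were 2-fold apart on either array. Usp14, a deubiquitinase bound to the proteasome, lay at 0.32 on the Th17 array and 0.90 on the Th1 array. Ecpas, an adaptor of the complex, lay at 0.58 and 0.82, and Ngly1, which processes NRF1, at 0.65 and 0.41. Txnl1, a thioredoxin bound to the regulatory particle, lay on opposite sides, at −0.57 and 0.62. Nfe2l1, the gene of NRF1, lay at 0.12 on the Th17 array and 0.47 on the Th1 array. Their values on the Th1 array were thus similar in size to those of the constitutive subunits.

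Of 14 ubiquitin supply and shuttling genes 8 were measured, and they had a median of 0.13 on the Th17 array (6 of 8 above 0) and 0.46 on the Th1 array (8 of 8). Ubqln2, a shuttle for ubiquitin-tagged proteins, lay at 2.11 on the Th17 array and 0.95 on the Th1 array over 3 probes and was the 1 gene of the list past 2-fold on the Th17 array. Vcp, a segregase that extracts substrates, lay at 0.36 and 0.66, Uba6, an enzyme that activates ubiquitin, at 0.17 and 0.64, and Rad23b, a further shuttle, at 0.39 and 0.61. The control genes were on the same side of the Th1 array in 10 of 12 cases, with Rpl13a at 0.37 on the Th17 array and 0.62 on the Th1 array, Hprt at 0.34 and 0.57, Actb at 0.41 and 0.51 and Pgk1 at 0.15 and 0.48.

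The class I antigen processing genes, which use the peptides the proteasome makes, did not lie to 1 side. Over 11 of 12 measured genes the median was −0.05 on the Th17 array (5 above 0) and 0.06 on the Th1 array (6 above 0). Tap1, the gene of a peptide transporter subunit that lies between Psmb9 and Psmb8 on chromosome 17, was at −0.05 on the Th17 array and −0.01 on the Th1 array, near 0 on both. Calr, a chaperone of class I molecules, lay at −1.18 and −1.03, and Canx, another, at 0.55 and 0.98. Erap1, which trims peptides, lay at 0.84 and 0.18, and Pdia3 at 0.65 and 0.46.

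The interferon gamma axis, which is known to induce the immunoproteasome and PA28, had its median on the negative side of both arrays. Over 12 of 13 measured genes its median was −0.20 on the Th17 array (4 above 0, 0 at least 2-fold) and −0.55 on the Th1 array (5 above 0, 3 at least 2-fold negative). Ifng lay at −0.83 on the Th17 array and −2.02 on the Th1 array. Gbp2, a guanylate-binding protein that interferon gamma induces, lay at 0.01 and −1.49, the receptor gene Ifngr1 at −0.12 and −1.03, and Ifngr2 at −0.87 and 0.48. On the Th1 array, where these 3 genes (Ifng, Gbp2 and Ifngr1) were at least 2-fold on the negative side, Psmb8, Psmb9, Psme1 and Psme2 lay between −0.10 and 0.01 and Psmb10 at 0.28. These values are as deposited. Centring on control genes, which shifts all genes of an array alike, put the immunoproteasome and PA28 median there at −0.29.

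**Figure D4:**
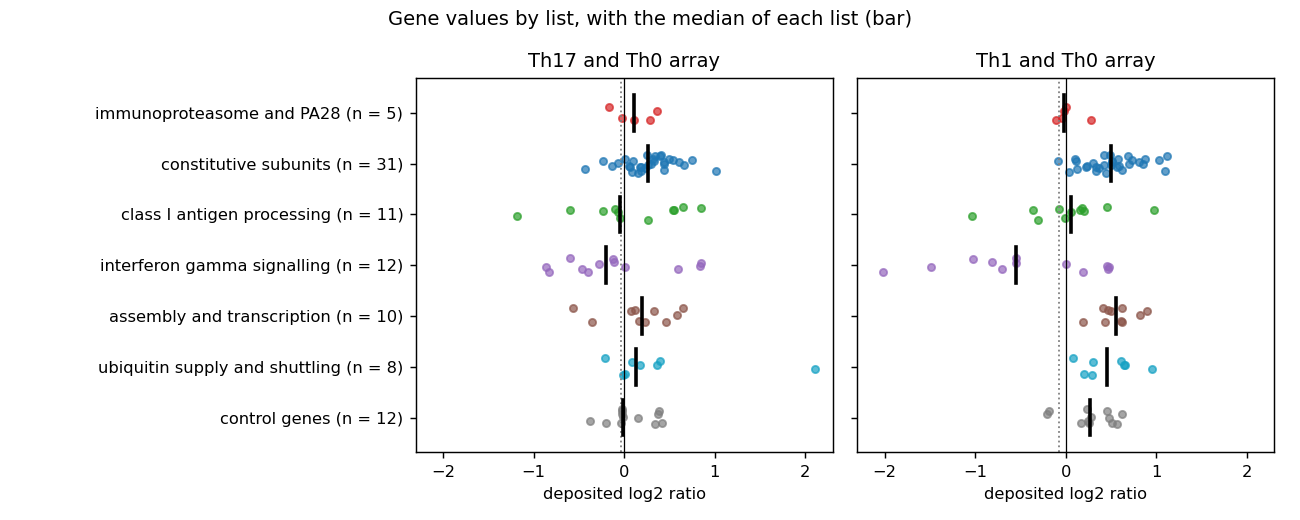
Deposited log2 ratio of single genes (points) and the median (bar) of 7 lists on the Th17 array (left) and the Th1 array (right), with 0 as the solid line and the median of all genes as the dotted line. On the Th1 array the constitutive subunits (0.50), the assembly and transcription genes (0.56) and the ubiquitin genes (0.46) lie right of the control genes (0.27), the immunoproteasome and PA28 genes near 0 (−0.02) and the interferon gamma genes left of it (−0.55).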

How the data were processed

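Per the labels' protocols, column-purified total RNA (500 ng per sample) was amplified, given amino allyl groups and coupled to the dyes. The authors deposited 1 value per probe and array for 36547 probes, read here as log2 ratios from the values themselves: repeated values lie apart by log2 of small whole-number ratios. The sources used here name no scanner software, background correction, normalisation or ratio direction, and signal and background per probe were not used here, so the depth is unknown. The arrays' number limits the precision. Probes with 1 gene (26926) were averaged per gene in Python 3.11.15 with pandas 2.3.3. Of them, 26774 matched a current gene by number, with 0 symbols changed. Left out were 203 probes annotated with more than 1 gene and 9418 with none. The alternatives were 3 centrings, probe summaries, leaving out probes whose ratio matched a weaker channel of at most 5 units (a search tested on simulated data), a 1.5-fold threshold and other member sets. Genes were named by rule: the 5 immunoproteasome and PA28 genes, their counterparts, and of the rest the 4 highest and 4 lowest per comparison, those past 2-fold, and those with probes 1 or more apart. From the lists, the 4 genes furthest from 0 were named. Further members, with Nfe2l1 and Tap1, were named after their values were seen. Members and lists were chosen with earlier results of these data known. A further motif is not reported here.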

Additional observations from a re-analysis of the deposited data

Results flagged for a closer look

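For 10 members the arrays lay on opposite sides of 0, both as deposited and when each array was centred on the median of its probes. The share of all genes that did so is not given here. With each array centred on its control genes, 5 of the 10 still lay on opposite sides (Psma7, Psmb11, Psmc3ip, Psmf1 and Psmg1), and Psmb9, Psmd2, Psmd4, Psmd7 and Psme3ip1 lay on the negative side of both. Psme1, Psme2 and Psmb6 lay on opposite sides as deposited, but above 0 on both arrays when centred on the median of probes. Centred on control genes they lay on opposite sides, at 0.38 and −0.29, 0.13 and −0.37, and 0.11 and −0.35. The differences of Psmc3ip, Psmg1 and Psmd7 exceed the pooled SD of 0.52 between probes of a gene over all genes. Those of the others of the 10 are below it. Psma7, Psmd2, Psmd4, Psmf1 and Psmb11 also exceed the SD of 0.24 over proteasome genes, and Psmb9 and Psme3ip1 do not. These SDs describe single probes, and with 1 array per comparison the difference was not tested for any of them. On the negative side of the Th17 array and the positive side of the Th1 array lay Psmc3ip (−0.27 and 0.54, a difference of −0.81), Psmg1 (−0.44 and 0.33, −0.78), Psmd7 (−0.44 and 0.12, −0.56), Psma7 (−0.07 and 0.30, −0.37), Psmd2 (−0.13 and 0.24, −0.37) and Psmd4 (−0.23 and 0.11, −0.34). Psmb9 (−0.16 and 0.01, −0.17) and Psme3ip1 (−0.11 and 0.05, −0.17) did so too. The reverse order held for Psmf1 (0.12 and −0.24, a difference of 0.37) and Psmb11 (0.19 and −0.15, 0.34). The probes of Psmd2 fell on both sides of 0 on each array, but neither changed side between the arrays (0.37 and 0.70, −0.64 and −0.23). For Psmd4, Psmd7 and Psmf1, 1 probe changed side (−0.43 and 0.27, −0.15 and 0.47, 0.25 and −0.19). The other was below 0 on both arrays (−0.02 and −0.05, −0.73 and −0.22, −0.004 and −0.30). The difference of Psmd4 was −0.71 in 1 probe and 0.03 in the other.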

How the results depend on the processing

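No paired analysis was possible because each comparison had 1 array. The immunoproteasome and PA28 median minus the constitutive median stayed negative under its 6 alternatives, from −0.29 to −0.10 on the Th17 array and from −0.52 to −0.38 on the Th1 array, and positive in the difference between arrays, from 0.15 to 0.35. Of these alternatives, leaving out dim probes could not change it. The median over a gene's probes repeated the reported value on each array. Centring on the most repeated value of each array (−0.43 on the Th17 and −0.85 on the Th1 array) moved the Th1 medians to 1.27 for all members, 1.34 for constitutive subunits and 0.83 for immunoproteasome and PA28 genes, and put 4 members on the Th17 array and 36 on the Th1 array at least 2-fold on the positive side, and 3 at least 2-fold negative in the difference. At 1.5-fold the positive counts were 4 of 49 on the Th17 array (7.88% of all genes) and 12 on the Th1 array (9.49%), and 3 were negative in the difference (9.33%). Centring on control genes left 0 on the Th1 array and turned the difference between arrays to 0.11 for all members and 0.09 for constitutive subunits. The immunoproteasome and PA28 median, near 0 as deposited, changed sign on the Th1 array with the first probe per gene (0.01). It also did so there when centred on the median of probes (0.09) or the most repeated value, and in the difference with the latter 2 (−0.04 and −0.40). Centred on control genes, this median was −0.29 on the Th1 array and 0.31 in the difference. Over the ways of combining probes, Psmb8 minus Psmb5 ranged from −0.45 to −0.13 on the Th1 array and from −0.07 to 0.25 in the difference, with −0.13 and −0.07 from the first probe. Leaving out dim probes changed no member, since 0 of 76 probes matched so weak a channel. The mean of Psmd2 on the Th17 array turned to 0.37 with its first probe alone. Signal over background was not known for any member.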

Other observations

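Psmb8 and Psmb9 lie within the MHC class II region of chromosome 17, where Tap1 between them was also near 0 on both arrays (−0.05 and −0.01). Of the class II genes nearby, 3 lay further from 0 than Tap1 and differed most between the arrays. H2-DMb1 and H2-DMb2, which help load class II molecules, lay at −0.47 and −0.46 on the Th17 array and at 0.62 and 0.59 on the Th1 array, and H2-Ab1, a class II chain, at −0.23 and 0.82. Each of these 3 differed by more than 1 between the arrays (−1.09, −1.05 and −1.05), against 0.02 for Psmb8 and −0.17 for Psmb9. H2-Ob, another class II gene close by, lay at −0.08 on the Th17 array and −0.26 on the Th1 array, and so differed from these 3. H2-DMa, a further one, lay at −0.19 and 0.20, with a smaller difference of −0.39. Tap2, next to Psmb8, lay at 0.54 on the Th17 array and 0.15 on the Th1 array. The class II markers are also expressed by dendritic cells and B cells, whose part in these values was not tested. Irf9, which lies close to Psme2 on chromosome 14, lay at −0.60 and −0.55, on the side opposite to Psme1 on the Th17 array. Pck2, near Psme1, lay at 1.65 on the Th17 array and 0.55 on the Th1 array.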
